A study of Mus musculus with 6 samples.

Results

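The genes described here are 10 regulators and products of the cartilage and bone lineages, Sox9, Sox5, Sox6, Acan and Comp on the cartilage side and Runx2, Sp7, Alpl, Spp1 and Ibsp on the bone side, as measured in mouse sarcoma cells that lack Dicer or keep 1 intact copy of its gene. They were chosen by symbol, and all probe sets (groups of short probes that together read 1 transcript) tied to exactly 1 of these symbols were taken, which gave 20 probe sets for 8 genes out of 45037 probe sets for 18193 named genes. Runx2 and Spp1 are not analysed here, because the annotation used ties no probe set to them alone. Dicer null cells (3 arrays), without an intact copy of Dicer1, were set against Dicer heterozygous cells (3 arrays), with 1 intact copy, so both groups carry a disrupted allele. All were sarcoma cells of strain C57BL6/J, harvested at confluence from DMEM with serum, and the labels do not name the promoter or method behind the deletion. Whether the 3 samples of a group are separate lines or cultures of 1 line is not stated, so p-values measure only the spread between these arrays, which may be technical.

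Cartilage and bone cells arise from common mesenchymal progenitors. Sox9 commits them to cartilage and, with its partners Sox5 and Sox6, drives matrix genes such as Acan, whereas Runx2 and then Sp7 commit them to bone, where Alpl, Spp1 and Ibsp serve the mineralising matrix. Dicer cuts the precursors of microRNAs, the short RNAs that lower the output of matching transcripts, and growth plate cartilage of mice needs it for normal growth. The title of the series names the let-7 family of microRNAs. Its members let-7g and let-7a are shown because their maturation needs the enzyme that differs between the groups, with the seed that selects targets (bases 2 to 8) in capitals, from RefSeq.
let-7g: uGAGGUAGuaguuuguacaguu
let-7a: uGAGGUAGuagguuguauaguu

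No cartilage or bone gene of the 10 passed the test between the groups. Of the 20 probe sets 6, from 5 genes, had a mean log2 value of at least 3 over the arrays and were tested, and 0 of the 6 passed limma's test at a Benjamini-Hochberg adjusted p under 0.05, against 3.1% of the 24385 tested on the whole array. At an unadjusted p under 0.05 there were 3 of the 6, those of Sox9, Sox5 and Comp, against 23.2% of all tested probe sets. The values of the 2 groups did not overlap in 4 of the 6, against 30.9% of all tested probe sets. A probe set that reached the minimum only through its higher group had to differ, so these counts over 6 describe them and support nothing. Over all 20 probe sets the groups did not overlap in 9, against 23.9% of all probe sets on the arrays. Dicer null arrays were the lower ones in 5 (11.2% of all probe sets) and the higher ones in 4 (12.7%). The median log2 difference, Dicer null minus Dicer heterozygous, was 0.00 over the 20 and 0.02 over all probe sets.

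Sox9, the master regulator of cartilage fate, was well above the minimum in both groups by 1 of its 3 probe sets. That probe set (1451538_at) read log2 values of 8.01, 8.73 and 8.82 in Dicer null arrays, against 9.48, 10.31 and 10.62 in Dicer heterozygous arrays. All Dicer null values lay below all Dicer heterozygous ones. The means were 8.52 ± 0.44 in Dicer null and 10.14 ± 0.59 in Dicer heterozygous arrays (SD, n = 3 each), a log2 difference of -1.62 (SE 0.37, 95% interval -2.51 to -0.72), or 3.07-fold lower in Dicer null arrays, with a limma adjusted p of 0.0715. The second tested probe set (1424950_at) had 2.97, 4.23 and 3.39 in Dicer null arrays and 3.37, 5.38 and 4.70 in Dicer heterozygous arrays. Here the groups overlapped, and the difference of -0.95 (SE 0.57) had a limma adjusted p of 0.370. The third, 1433889_at, stayed below 3 on every array. All 3 probe sets had lower means in Dicer null arrays.

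Sox5 and Sox6, which encode the partners of Sox9 in cartilage, lay near the array's background. The Sox5 probe set that was tested (1423500_a_at) gave 3.98, 3.83 and 3.79 in Dicer null arrays, against 3.13, 3.45 and 2.50 in Dicer heterozygous arrays. The Dicer null arrays were all higher, the opposite side from Sox9. The means were 3.87 ± 0.10 in Dicer null and 3.03 ± 0.48 in Dicer heterozygous arrays (SD, n = 3 each), the difference was 0.84 (SE 0.27, 95% interval 0.19 to 1.49), and the limma adjusted p was 0.137. Among the 6 Sox5 probe sets below the minimum, 1455535_at read 3.07, 2.65 and 3.38 in Dicer null arrays and 2.02, 2.34 and 1.76 in Dicer heterozygous arrays, and 1432189_a_at read 2.56, 2.53 and 2.77 in Dicer null arrays and 1.91, 1.97 and 2.01 in Dicer heterozygous arrays. Dicer null arrays were all higher in both, and again in 1452511_at, where no value reached 3. In the other 3 (1440827_x_at, 1432190_at and 1459261_at) the groups overlapped or touched. Values this low depend on how GCRMA, the authors' normalization, models background. The 4 probe sets of Sox6 stayed between 1.06 and 2.34 on all arrays, and in each of them the groups overlapped.

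**Figure D1:**
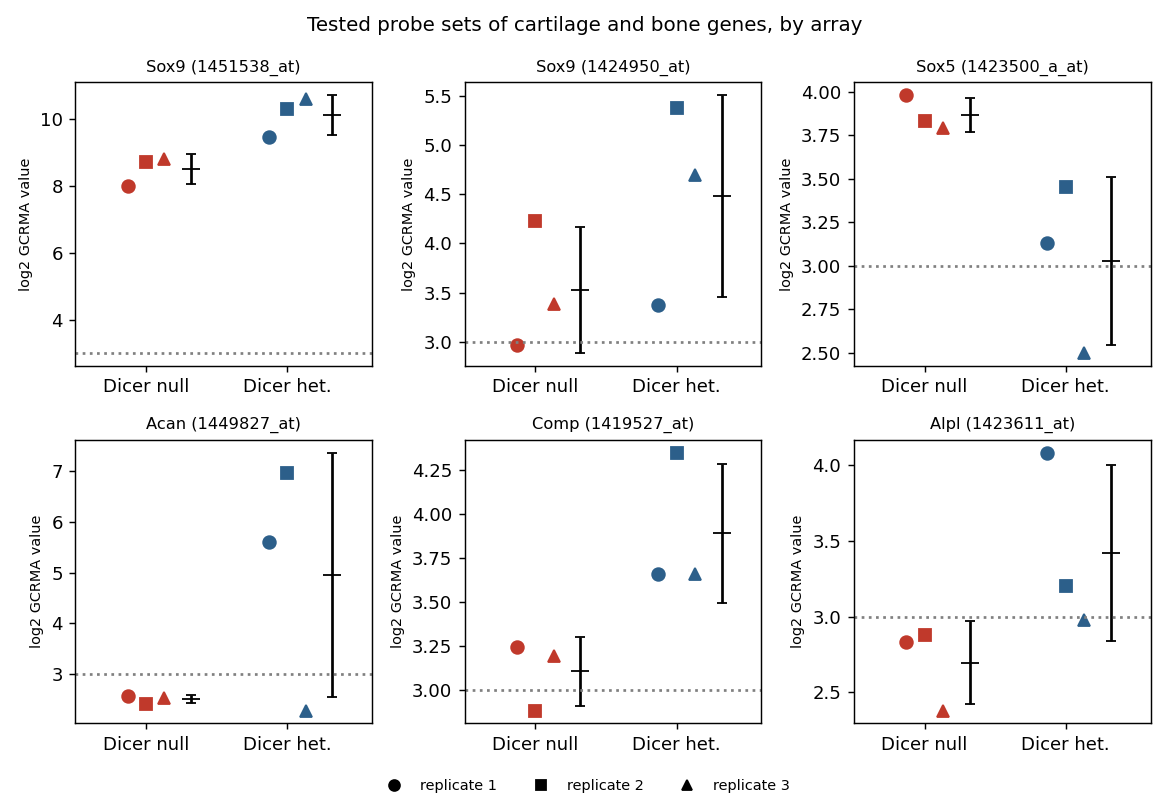
Log2 GCRMA values of the 6 tested probe sets of Sox9, Sox5, Acan, Comp and Alpl in 3 Dicer null (red) and 3 Dicer heterozygous (blue) arrays, with mean and SD in black, symbols for replicates and a dotted line at the minimum of 3. Sox9 by 1451538_at, Comp and Alpl were lower and Sox5 higher on all Dicer null arrays, while Acan reached 3 on 2 Dicer heterozygous arrays and on no other.

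Acan, which encodes the large proteoglycan aggrecan of cartilage matrix, was measured by 1 probe set. It stood at 2.57, 2.41 and 2.53 in Dicer null arrays, against 5.60, 6.97 and 2.28 in Dicer heterozygous arrays. It was above the minimum on 2 Dicer heterozygous arrays only, and Dicer heterozygous replicate 3 had the lowest value of all 6. The fitted difference of -2.45 (SE 1.12, 95% interval -5.16 to 0.27) had a limma adjusted p of 0.253. All Dicer null values were under the minimum, so the fitted value is no size. The group means alone give a bound, at least 3.86-fold lower against a log2 value of 3. That bound leaves out the spread between arrays, and the 95% interval included no difference. The limma adjusted p was 0.0201 without Dicer heterozygous replicate 3 and 0.466 without Dicer heterozygous replicate 2, and the call without replicate 3 rests on the 2 high arrays. That replicate 3 array, the one without an Acan signal, had the highest Sox9 value by 1451538_at (10.62). It also had the lowest level of 11 proliferation genes: their median relative to each gene's mean was 0.22, 0.50 and 0.32 in Dicer null arrays and 0.065, -0.03 and -0.925 in Dicer heterozygous replicates 1, 2 and 3. The part of these differences in the Acan values was not tested. In bulk samples fewer cells with a transcript and less RNA per cell cannot be told apart.

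Comp, a secreted protein that binds collagen in cartilage and tendon, lay close to the minimum. Its values were 3.24, 2.88 and 3.19 in Dicer null arrays and 3.66, 4.35 and 3.66 in Dicer heterozygous arrays. All Dicer null values were lower, with means of 3.10 ± 0.20 in Dicer null and 3.89 ± 0.40 in Dicer heterozygous arrays (SD, n = 3 each), a difference of -0.79 (SE 0.25, 95% interval -1.39 to -0.19) and a limma adjusted p of 0.135.

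On the bone side only Alpl, the alkaline phosphatase that frees phosphate for mineral, was tested. It read 2.83, 2.88 and 2.38 in Dicer null arrays, all under the minimum, against 4.08, 3.20 and 2.98 in Dicer heterozygous arrays. The groups did not overlap, but their nearest values, 2.88 in Dicer null and 2.98 in Dicer heterozygous arrays, were close. The difference was -0.72 (SE 0.33, 95% interval -1.52 to 0.07, limma adjusted p 0.250), and without Dicer heterozygous replicate 1 it was -0.39. The group means alone put Alpl at least 1.34-fold lower against a log2 value of 3, but the interval included no difference. Sp7, the osteoblast transcription factor osterix, had 1.75, 1.6 and 1.85 in Dicer null arrays and 2.04, 2.89 and 2.66 in Dicer heterozygous arrays. Its Dicer null values were all lower, but no array reached 3, so neither group had a level that could be told from background. Ibsp, which encodes bone sialoprotein, read between 1.42 and 2.51 over its 2 probe sets and 6 arrays, with overlapping groups.

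**Figure D2:**
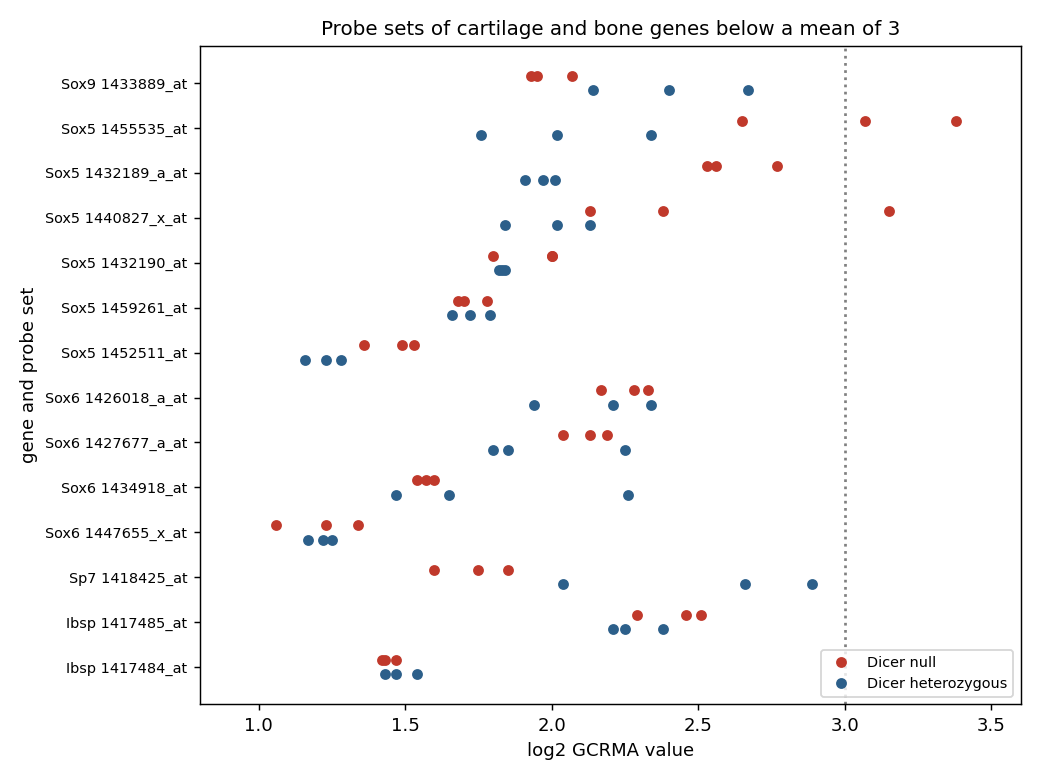
Log2 GCRMA values of the 14 probe sets of Sox9, Sox5, Sox6, Sp7 and Ibsp whose mean lay under 3 (dotted line), with Dicer null arrays (red) above Dicer heterozygous arrays (blue) in each row. In 12 of them no array reached 3, and the 2 with a value above it are Sox5 probe sets on Dicer null arrays.

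**Figure D3:**
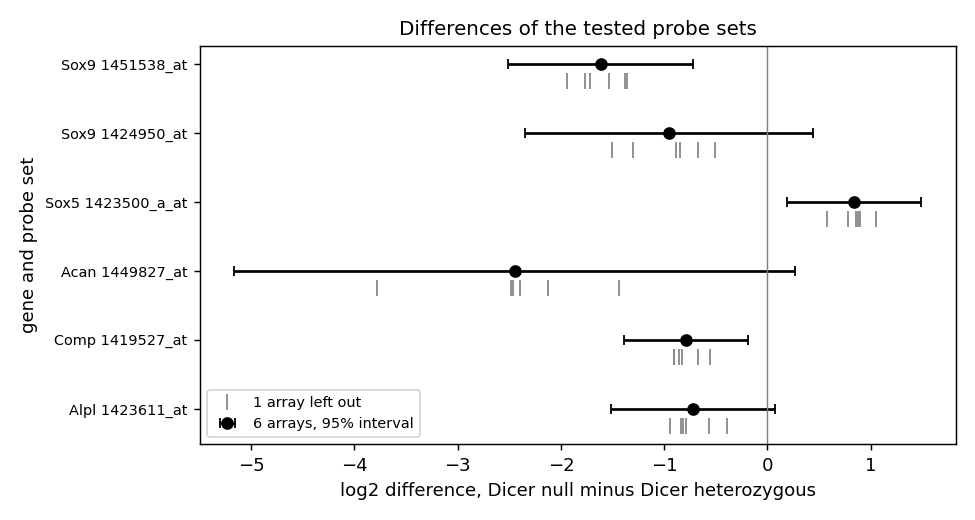
Log2 differences (Dicer null minus Dicer heterozygous) of the 6 tested probe sets with 95% intervals from limma, and below each the 6 values with 1 array left out. All 5 probe sets of Sox9, Acan, Comp and Alpl kept a negative difference and Sox5 a positive one in each of these fits.

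The promoters of the tested genes Sox5, Acan and Alpl are shown because Sox5 lay on the opposite side from Acan and Alpl. Each window runs from 250 bases before to 50 after the start of a RefSeq transcript, and 7 of the 10 genes have an entry. Sox9 and Comp, which were also tested, have none. The Sox5 window is that of an internal start, since the gene, on the minus strand, begins at position 144782287. Capitals mark the SOX motifs ACAAAG and ACAATG, read on both strands (reverse complements CTTTGT and CATTGT). The 2 differ in 1 base, and no 2 matches shown here overlap.
Sox5 (GRCm38.p6, chr6:143947057-143947356, minus strand): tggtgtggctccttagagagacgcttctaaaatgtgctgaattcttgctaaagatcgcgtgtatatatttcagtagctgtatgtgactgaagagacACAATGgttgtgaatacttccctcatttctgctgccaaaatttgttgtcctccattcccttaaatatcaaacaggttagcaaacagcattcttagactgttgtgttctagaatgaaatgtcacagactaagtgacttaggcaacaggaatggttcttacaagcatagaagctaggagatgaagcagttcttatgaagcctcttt
Acan (GRCm38.p6, chr7:79052976-79053275, plus strand): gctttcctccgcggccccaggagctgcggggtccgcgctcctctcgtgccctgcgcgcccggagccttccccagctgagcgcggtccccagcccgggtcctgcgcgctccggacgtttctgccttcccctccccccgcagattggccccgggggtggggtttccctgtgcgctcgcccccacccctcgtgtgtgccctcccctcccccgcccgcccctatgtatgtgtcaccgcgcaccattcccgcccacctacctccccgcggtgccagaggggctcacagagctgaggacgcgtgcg
Alpl, upstream start (GRCm38.p6, chr4:137796335-137796634, minus strand): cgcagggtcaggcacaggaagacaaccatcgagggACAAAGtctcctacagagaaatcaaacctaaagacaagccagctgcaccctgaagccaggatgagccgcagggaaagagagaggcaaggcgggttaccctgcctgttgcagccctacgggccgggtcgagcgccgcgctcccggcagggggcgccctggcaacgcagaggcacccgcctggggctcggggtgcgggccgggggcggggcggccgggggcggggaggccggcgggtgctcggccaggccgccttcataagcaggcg
Alpl, downstream start (GRCm38.p6, chr4:137766426-137766725, minus strand): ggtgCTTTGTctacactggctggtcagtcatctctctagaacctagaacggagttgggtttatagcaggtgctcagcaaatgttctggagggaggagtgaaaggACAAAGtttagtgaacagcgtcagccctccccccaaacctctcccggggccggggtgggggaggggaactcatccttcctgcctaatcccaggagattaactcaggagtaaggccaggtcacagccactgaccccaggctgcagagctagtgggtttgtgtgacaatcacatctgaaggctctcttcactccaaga
The Sox5 window held ACAATG once, the Acan window held neither motif, and the Alpl windows held ACAAAG 1 and 2 times. Of 32851 promoter windows of this length 18.7% held ACAAAG, 12.6% ACAATG and 28.6% at least 1 of them. The RUNX motif ACCACA (reverse complement TGTGGT) was in none of these 4 windows and in 16.8% of all. A match describes letters only and is not a site.

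Beyond the 10 genes, 3 other genes of cartilage and bone fell and none rose. Of 52 other genes of these lineages 47 had a probe set and 24 were tested, and 3 of the 24 passed limma's test, all lower, against 2% lower and 1.45% higher of all 11425 tested genes, with 3.46% called in all. Genes such as Col11a1 reached the minimum only through the Dicer heterozygous arrays, and the lists were chosen with earlier results known, so the count describes these genes and supports nothing. Over all 47 genes with a probe set, the minimum aside, 20 had a positive difference and the median was -0.04, while the median of all genes with a probe set was 0.00. The 3 that fell were Omd and Mgp of 17 tested bone genes and Col11a1 of 7 tested cartilage genes. Many of these genes also serve other connective tissues. The count was 0 without Dicer heterozygous replicate 2, 1 without Dicer null replicate 2 or 3, and 5 without Dicer heterozygous replicate 1.

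Omd, which encodes osteomodulin, a keratan sulfate proteoglycan of bone, read 5.91, 4.02 and 5.63 in Dicer null arrays, against 9.87, 11.38 and 10.44 in Dicer heterozygous arrays. The groups lay far apart, with means of 5.19 ± 1.02 in Dicer null and 10.56 ± 0.76 in Dicer heterozygous arrays (SD, n = 3 each), and Omd fell by 5.38 on the log2 scale (SE 0.60; 41.5-fold; limma adjusted p 0.0182). Omd missed the threshold in 3 of the 6 fits without 1 array, Dicer null replicate 2 (limma adjusted p 0.0571), Dicer null replicate 3 (0.0708) or Dicer heterozygous replicate 2 (0.0569). Mgp, the matrix Gla protein that inhibits calcification of cartilage, had 8.57, 7.70 and 9.43 in Dicer null arrays and 12.85, 13.10 and 13.35 in Dicer heterozygous arrays. It fell by 4.53 (SE 0.44; limma adjusted p 0.0150), and missed the threshold only without Dicer heterozygous replicate 2 (0.0541) among the fits that leave out 1 array.

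Col11a1, a chain of the fibrillar collagen XI of cartilage, read 1.85, 1.6 and 1.71 in Dicer null arrays, against 5.02, 8.42 and 9.65 in Dicer heterozygous arrays. The Dicer null arrays were at background, so the fold is a bound: by its group means Col11a1 was at least 25.9-fold lower against a log2 value of 3 (limma adjusted p 0.0492). Its second probe set, 1418599_at, had the same order of arrays within the Dicer heterozygous group but did not pass (limma adjusted p 0.0624). Without 1 array the adjusted p of Col11a1 ran from 0.00526 to 0.160, and it passed in 1 of the 6 fits. It also missed the threshold with a minimum of 2 (0.0593), with no minimum (0.0718), with robust moderation (0.0528) and after a second quantile normalization (0.0511).

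**Figure D4:**
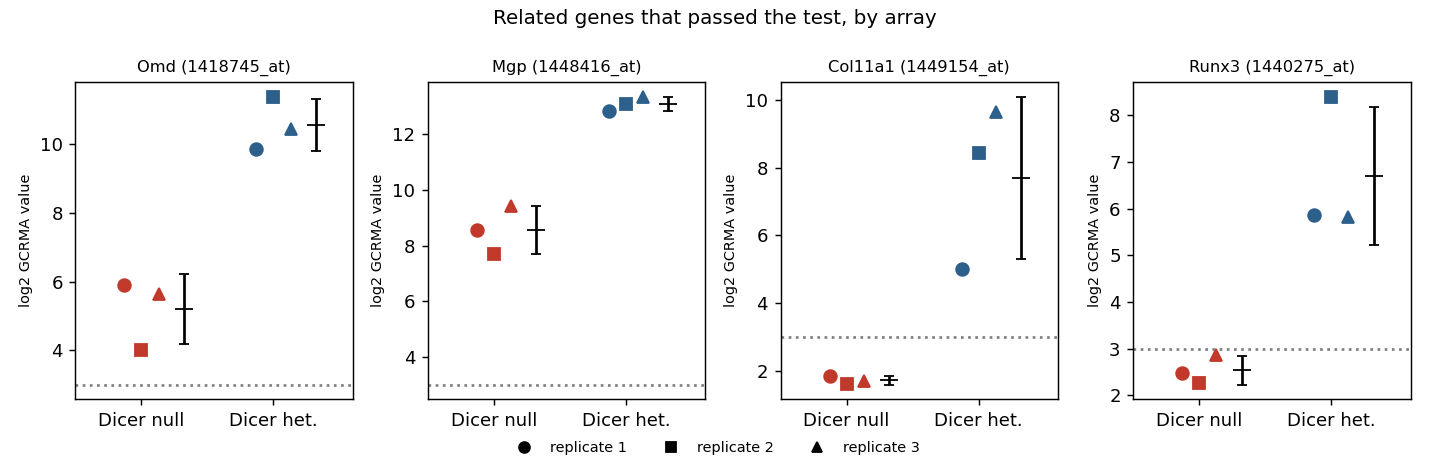
Log2 GCRMA values of Omd, Mgp, Col11a1 and Runx3 in 3 Dicer null (red) and 3 Dicer heterozygous (blue) arrays, with mean and SD in black and a dotted line at 3. In each of the 4 genes all Dicer null values lie below all Dicer heterozygous ones, and Col11a1 and Runx3 are under 3 on every Dicer null array.

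Among the relatives of the regulators, 1 of 3 tested genes fell, against 2% of all tested genes, and it was tested only through its Dicer heterozygous arrays. Runx3, a Runx factor that acts with Runx2 in cartilage maturation, read 2.48, 2.26 and 2.86 in Dicer null arrays, against 5.87, 8.40 and 5.83 in Dicer heterozygous arrays. By its group means it was at least 13-fold lower against a log2 value of 3 (limma adjusted p 0.0414). It passed in 2 of the 6 fits without 1 array and not with no minimum (0.0596), and its second probe set lay under 3 in both groups. Runx1, another Runx factor, gave 8.02, 8.33 and 8.73 in Dicer null arrays by 1422864_at, its probe set with the highest mean. In Dicer heterozygous arrays it gave 7.07, 8.27 and 9.14, with a difference of 0.20 (SE 0.53, limma adjusted p 0.853). Its other tested probe sets all had lower means in Dicer null arrays, without passing. The largest of these differences, in 1440878_at, was -0.67 (SE 0.27, limma adjusted p 0.208), with no overlap. Cbfb, the shared partner of the Runx factors, had 11.89, 11.74 and 11.96 in Dicer null arrays, against 10.59, 11.23 and 11.50 in Dicer heterozygous arrays. It was higher on all Dicer null arrays but did not pass (difference 0.76, SE 0.26; limma adjusted p 0.161). Sox8, Sox10 and Sox13 were below the minimum.

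Several other lineage genes had large differences without passing, most of them with a wide spread among the Dicer heterozygous arrays. They are named after their values were seen. Tnfrsf11b, the osteoprotegerin that blocks osteoclast formation, stood at 1.45, 1.35 and 1.39 in Dicer null arrays and at 3.33, 7.0 and 7.97 in Dicer heterozygous arrays (limma adjusted p 0.0808). Tnfsf11, the ligand that osteoprotegerin binds and that drives osteoclast formation, lay on the other side, with 5.62, 7.92 and 5.50 in Dicer null arrays and 4.33, 3.31 and 4.63 in Dicer heterozygous arrays (difference 2.26, SE 0.72; limma adjusted p 0.137). Neither passed with all 6 arrays, so these are values and not changes. Of the 6 fits without 1 array, Tnfrsf11b passed in 1 (limma adjusted p 0.00526) and Tnfsf11 in 0. The second probe set of each gene was below the minimum. Cdh11, the cadherin of osteoblasts and other mesenchymal cells, had 1.64, 1.65 and 1.84 in Dicer null arrays and spread over 2.07, 6.03 and 11.53 in Dicer heterozygous arrays (limma adjusted p 0.250).

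The homeobox genes of bone, Dlx5 and Msx2, also varied among the Dicer heterozygous arrays. Dlx5 read 4.03, 2.96 and 2.81 in Dicer null arrays and 2.85, 7.29 and 6.46 in Dicer heterozygous arrays (limma adjusted p 0.290). Msx2 read 2.75, 2.29 and 2.36 in Dicer null arrays and 4.84, 5.06 and 2.96 in Dicer heterozygous arrays (limma adjusted p 0.129). Without Dicer heterozygous replicate 1 Dlx5 passed (0.0339), and without Dicer heterozygous replicate 3 Msx2 did (0.0135). Prg4, the lubricin of joint cartilage surfaces, was the positive end of the list, with 7.78, 7.92 and 9.14 in Dicer null arrays and 3.31, 3.64 and 7.63 in Dicer heterozygous arrays. Its difference of 3.42 (SE 1.17; limma adjusted p 0.156) passed without Dicer heterozygous replicate 3 (4.81; limma adjusted p 0.0151).

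**Figure D5:**
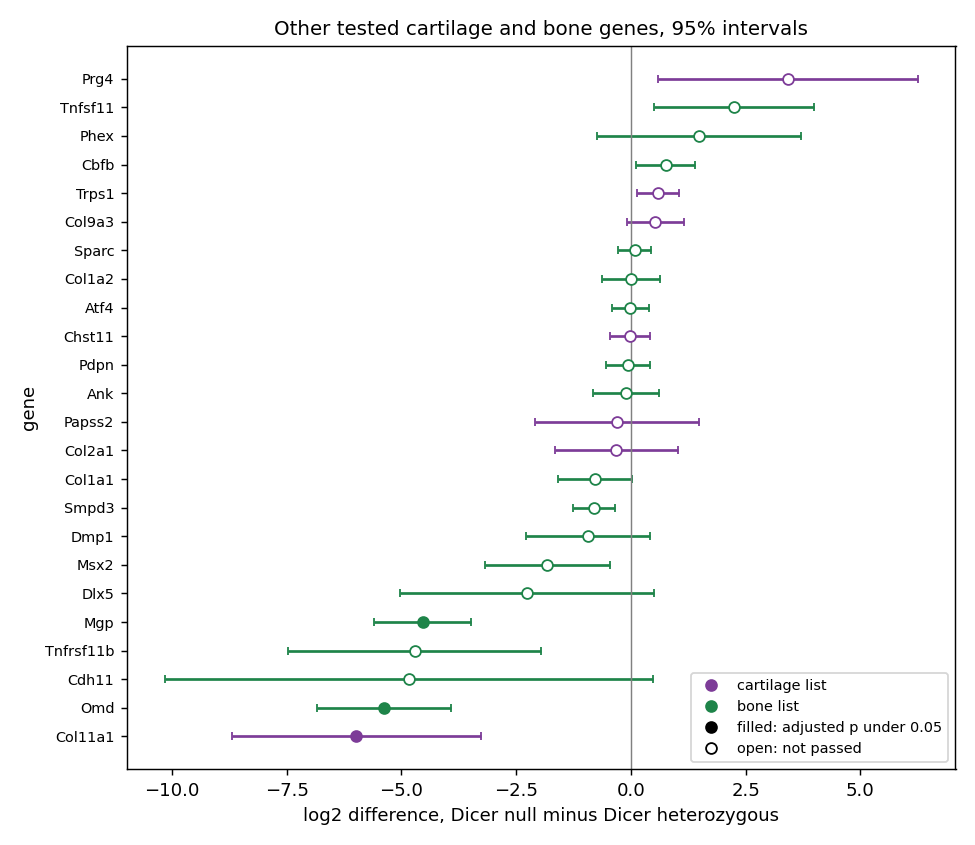
Log2 differences (Dicer null minus Dicer heterozygous) of the 24 other tested cartilage (purple) and bone (green) genes with 95% intervals from limma, filled where the adjusted p is under 0.05. Col11a1, Omd and Mgp are filled, all on the negative side, and Prg4 and Tnfsf11 have the highest differences without passing.

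Products that mark mature cartilage were largely at background in both groups. Of 26 other cartilage genes 19 were below the minimum, among them Col9a1, Col10a1, Matn1, Matn3, Hapln1, Chad and Snorc. By their probe set with the highest mean, 16 never reached 3 on any array. The 7 tested were Col2a1, Col9a3, Col11a1, Prg4, Trps1, Chst11 and Papss2. Col9a3 read 5.02, 5.17 and 5.33 in Dicer null arrays and 5.10, 4.59 and 4.22 in Dicer heterozygous arrays by 1460693_a_at (limma adjusted p 0.272). Col2a1, the main cartilage collagen, was close to the minimum, with 3.22, 3.06 and 3.67 in Dicer null arrays and 3.64, 4.74 and 2.51 in Dicer heterozygous arrays. Dicer heterozygous replicate 3 was below 3 for both Col2a1 and Acan. Of the bone genes, Mepe and Sost of osteocytes stayed below 3 on every array, while Col1a1 read 12.43, 11.52 and 11.27 in Dicer null arrays and 12.30, 12.54 and 12.73 in Dicer heterozygous arrays by 1455494_at (limma adjusted p 0.224). Its other tested probe set, 1423669_at, read 11.85, 10.36 and 9.31 in Dicer null arrays and 12.60, 13.08 and 12.73 in Dicer heterozygous arrays, with no overlap (difference -2.30, SE 0.62; limma adjusted p 0.0972). Neither passed, and the sizes of their differences are unlike. Dmp1, another osteocyte gene, gave values from 7.86 to 8.89 in Dicer null arrays and from 8.11 to 10.12 in Dicer heterozygous arrays by 1443746_x_at. By 1443745_s_at it read 4.64, 5.56 and 5.05 in Dicer null arrays and 4.20, 6.99 and 5.85 in Dicer heterozygous arrays. Its probe set 1426005_at gave at most 3.6, so the level of Dmp1 is uncertain. Phex, also on the bone list, read 6.77, 9.53 and 9.82 in Dicer null arrays by 1421979_at. In Dicer heterozygous arrays it read 8.19, 6.19 and 7.29 (limma adjusted p 0.381).

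The signals upstream of these regulators did not pass either. Of 22 ligands and receptors of the BMP, hedgehog, FGF and Wnt pathways 15 were tested. By limma 0 passed, against 3.46% of all tested genes. With each gene read by its tested probe set of highest mean, an unadjusted limma p under 0.05 was found for 1. The share of 23.2% counts all tested probe sets, not genes, so the 2 are unlike units. That one, the BMP receptor gene Bmpr1b, had 2.42, 3.68 and 1.36 in Dicer null arrays and 4.0, 4.26 and 5.48 in Dicer heterozygous arrays. All Dicer null values were lower (difference -2.09, SE 0.66, limma adjusted p 0.135). Further probe sets of Bmpr1b, Fgfr2 and Bmpr1a also had an unadjusted limma p under 0.05 (0.0337, 0.0445 and 0.0479).

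The identity and quality of the samples were checked through marker genes. Beside the counts below, 3.46% of all tested genes were called by limma. An unadjusted p under 0.05 was found for 23.2% of all tested probe sets, while the counts below are over genes, each by its tested probe set of highest mean. Of 9 mesenchymal markers 8 were tested and 0 were called by limma, with 2 at an unadjusted p under 0.05, and S100a4 came nearest (limma adjusted p 0.0570; 0.0321 with limma's trend option, which calls it). Of the other cell types' markers 0 were called by limma, with 2 of the tendon and 1 of the osteoclast markers at an unadjusted p under 0.05. The tested ones were 0 of 5 endothelial, 1 of 7 leukocyte and macrophage, 2 of 7 skeletal muscle, 2 of 6 epithelial, 3 of 7 osteoclast, 4 of 6 adipocyte and 4 of 6 tendon markers. The summed linear level of the leukocyte markers was 44.7 to 81.1 in Dicer null arrays and 62.3 to 164.6 in Dicer heterozygous arrays, with 5 of the 7 below 3 on every array. That of the tendon markers was 6388 to 7376 in Dicer null arrays and 7014 to 10392 in Dicer heterozygous arrays. Most of it came from Egr1 (means 12.70 and 12.82), so the sum says little about the others. Scx read 7.03, 6.88 and 6.35 in Dicer null arrays and 8.32, 8.68 and 7.45 in Dicer heterozygous arrays (limma adjusted p 0.0931). Mkx lay the other way, with means of 7.61 in Dicer null and 6.74 in Dicer heterozygous arrays (limma adjusted p 0.385). The sum of the osteoclast markers was 556 to 1077 in Dicer null arrays and 288 to 399 in Dicer heterozygous arrays, without overlap. Most of the Dicer null sums came from Itgb3, which had the smallest p (limma adjusted p 0.0895). It read 9.14, 8.67 and 9.87 in Dicer null arrays and 7.52, 5.19 and 7.19 in Dicer heterozygous arrays. The other tested markers did not follow it. Nfatc1 had means of 6.85 in Dicer null and 7.38 in Dicer heterozygous arrays, and Ctsk 4.07 and 4.09. Acp5, Calcr, Ocstamp and Dcstamp stayed below 3 on every array. Epithelial markers summed to 32.8 to 72.1 in Dicer null arrays and 29.9 to 557 in Dicer heterozygous arrays. On Dicer heterozygous replicate 1 Krt18 read 9.02, against 2.09 and 2.17 on replicates 2 and 3. Acta1, a skeletal muscle marker, was also highest there (7.75). Tendon cells share Comp and Fmod with cartilage. Fmod, a collagen-binding proteoglycan, read 2.85, 2.73 and 2.51 in Dicer null arrays by 1456084_x_at. In Dicer heterozygous arrays it read 6.04, 11.07 and 9.13 (limma adjusted p 0.0536). With the trend option this probe set was called (0.0365), and likewise without Dicer heterozygous replicate 1 (0.0125). Its other tested probe sets were also lower on all Dicer null arrays, with limma adjusted p from 0.111 to 0.176. The part of the tendon markers in the Comp values was not tested. The 11 tested proliferation genes all had a higher mean in Dicer null arrays, with a median difference of 0.68, and 0 were called by limma, with 4 at an unadjusted p under 0.05. Their summed linear level was 32400 to 36776 in Dicer null arrays and 17295 to 27077 in Dicer heterozygous arrays, and their part in the lineage genes' values was not tested. Dicer1 itself, by its probe set with the highest mean, was 8.46 ± 0.09 in Dicer null arrays and 8.32 ± 0.24 in Dicer heterozygous arrays (SD, n = 3 each; limma adjusted p 0.693), and a probe set outside the deleted part, which the labels do not give, checks nothing.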

How the data were processed

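Affymetrix 3′ expression arrays read the RNA of 6 samples. The values deposited by the authors are 1 number per probe set and array, taken to be on a log2 scale from their range of 0.40 to 14.18. Tools named in the submitters' processing notes are R 2.11.1 and GCRMA 2.20.0, which removes a background estimated from probe sequences, quantile normalizes the arrays and summarises each probe set. Settings and filters: not given in the sources used here. Array medians were 3.32 to 3.43, and no 2 arrays were identical. Having 3 arrays per group limits the precision.

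Groups come from the genotype in each title. Names of probe sets come from the platform's annotation where it gives 1 symbol (34945 of them); Entrez IDs found 34741 of these in the gene table of GRCm38.p6, with 0 symbols changed. Probe sets with a mean under 3 over the 6 arrays (20652) were not tested. The others were fitted with limma 3.58.1 in R 4.3.3 (lmFit, eBayes, no block, two-sided, Benjamini-Hochberg over all 24385 at 0.05). For a gene in a list, the tested probe set of highest mean was used. The test was tried on simulated data. The 10 genes and the lists were chosen with earlier results of these data known. The naming rule took every probe set of the 10 genes, and also the gene Dicer1. From each list it took every called gene, or else the one with the smallest p. Markers of other cell types and the proliferation genes were described by counts and range, so not each of their smallest-p genes is named. Further genes are named after their values were seen. Alternatives were other minimums, trend, robust, renormalized, centred and ordinary t fits, array weights, a replicate block, a 2-fold minimum, other probe set choices and each array left out. Promoters and microRNAs are from RefSeq tables of GRCm38.p6. Figures were drawn with matplotlib 3.10.9.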

Additional observations from a re-analysis of the deposited data

How the results depend on the processing

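Array weights by the gene-by-gene method were added after the effect of limma's default weights was seen; the remaining alternatives were planned. Causes of the shifts were not tested. None of the 10 genes passed in the fits with other minimums, trend, robust moderation, renormalized or centred arrays, ordinary t, a 2-fold minimum, the block or other probe set choices. With limma's default array weights 4 of their probe sets in 3 genes passed (both tested ones of Sox9, Acan and Comp), with 15 of the other cartilage and bone genes and 6875 of all probe sets. With gene-by-gene weights the counts were 3, 3, 8 and 2949. The default method gave Dicer heterozygous replicate 2 a weight of 14.47 and replicate 3 one of 0.24, so these calls rest largely on 1 array. Ordinary t statistics gave 0 of all probe sets and 0 of the other cartilage and bone genes, against 756 and 3 by limma's moderated test. With the trend option Fmod and S100a4 were called.

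Without 1 array, 45 to 857 of all probe sets, 0 to 1 member probe sets, 0 to 1 member genes (Acan, without Dicer heterozygous replicate 3) and 0 to 5 other cartilage and bone genes passed. In these fits the difference of Sox9 (1451538_at) ran from -1.95 to -1.36, with limma adjusted p from 0.0509 to 0.174. Differences near 0 changed sign without 1 array: Col1a2 (0.01 with all arrays) ran from -0.15 to 0.21, at -0.08, -0.08, -0.15 and -0.04 in the 4 fits that turned it, Runx1 ran from -0.35 (without Dicer heterozygous replicate 1) to 0.69, and Col2a1 from -0.87 to 0.24 (without Dicer heterozygous replicate 2).

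Deviations of same-numbered arrays from their group means had correlations of -0.06, 0.11 and 0.24. For 3 of 6 arrays the best match was the one of the same number. Whether arrays of the same number were handled together is not stated, and correlations from so few arrays do not decide it. With the number as a replicate block 116 of all probe sets and 1 of the other cartilage and bone genes, Mgp, passed, and 0 of the 10 genes; the limma adjusted p was 0.0747 for Omd, 0.0898 for Col11a1 and 0.0899 for Runx3. Probe sets below a log2 value of about 3 cannot show a level here.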
